A study of Homo sapiens with 3 samples.

Results

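The comparison was of HepG2 cells given 20 µM A740003 for 48 h with HepG2 cells given PBS for 48 h, measured by RNA-seq with 1 library on each side. HepG2 is an established line from a human liver carcinoma, and the labels give its genotype as wild type. A library from cells given 20 µM A438079 for 48 h completed the series. The labels call both compounds specific antagonists of P2X7 and name PBS as the control, and what the compounds were dissolved in was not stated in the labels. Genes were taken at a mean level of at least 1 CPM (a count scaled to a common library size) over the 3 libraries, which left 12272 of the 62680 rows of the table of expected counts. At a mean of at least 10 CPM there were 8196 genes, called well counted here, and the results below concern these genes unless another level is named. The genes nearest to that limit were RERE and SHB, just under it at 9.99 CPM, and FANCB and UBE2L6, just over it at 10.0 CPM. Every value is a ratio of scaled counts with an exact 95% counting interval. Intervals cover counting error between 2 libraries only, and no test of the treatment was possible.

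P2X7 is a cation channel of the plasma membrane that opens when ATP binds outside the cell. In immune cells it is known for potassium loss and inflammasome activation, and in tumour cells for effects on growth and calcium signalling. A740003 is a small molecule that was developed as a competitive antagonist of this channel. P2RX7, the gene of the channel, had 2 counts in each of the 3 libraries. All 8 hepatocyte markers in a marker list were well counted, among them ALB and HNF4A, and their summed level was 13585 CPM with A740003 and 15297 CPM with PBS. ALB, the largest part of the sum, stood at 4817 CPM with A740003 and 6451 CPM with PBS (0.747 times). The others lay on both sides of PBS. RBP4 stood at 1.21, AHSG at 1.11, APOA2 at 1.04, HNF4A at 1.01, TF at 0.961, APOA1 at 0.897 and FGB at 0.741 times. Of 6 fibroblast markers, 5 had no count in any library, as had all 4 endothelial markers with a row in the table. Among 6 leukocyte markers PTPRC and CD3E had no counts, while LYZ and CD68 were well counted. Library totals were 19375462 to 19735540 counts, and 1 CPM stood for 19.4 to 19.9 counts.

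Many more well counted genes lay far below PBS than far above it. With A740003, 150 genes were at least 2-fold lower with an interval that excluded 1, which is 1.83% of those compared, and 5 were at least 2-fold higher (0.061%). At 1.5-fold, 398 genes were lower (4.86%) and 88 higher (1.07%). The middle of the distribution did not move with the lower genes: the median log2 ratio was 0.03, and 4558 genes stood above PBS against 3638 below. Genes of 1 to 10 CPM, 4076 in all, had wider spreads, with 899 at least 1.5-fold lower (22.1%, of which 516 or 12.7% by 2-fold) and 305 at least 1.5-fold higher (7.48%, of which 140 or 3.43% by 2-fold). Over all 12272 genes, 1297 were lower at 1.5-fold (10.6%) and 666 at 2-fold (5.43%), against 393 (3.2%) and 145 (1.18%) higher. The 5 genes past 2-fold on the higher side were RPS28P7, UGT1A3, POLR2L, RPL36A-HNRNPH2 and UGT1A1. None of the 5 had whole expected counts, so reads shared with other genes make them uncertain. The genes described next all had whole expected counts in the A740003 and PBS libraries, as did 4538 of the well counted genes. Of these 4538, 251 were lower at 1.5-fold (5.53%) and 96 at 2-fold (2.12%), while 46 were higher at 1.5-fold (1.01%) and 0 at 2-fold (0%). RNA of whole cultures was measured, so fewer cells of a state and less RNA per cell cannot be told apart.

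**Figure D1:**
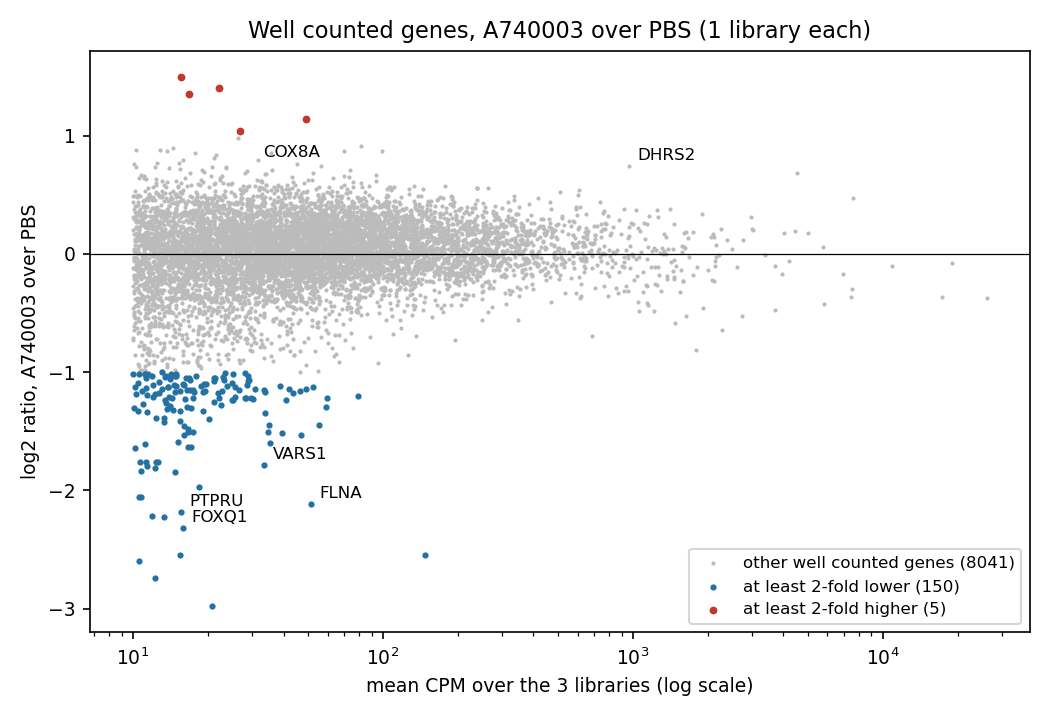
The log2 ratio of A740003 over PBS (vertical axis) is plotted against the mean CPM over the 3 libraries (horizontal axis, log scale) for the 8196 well counted genes. Blue points are the 150 genes at least 2-fold lower, which lie mostly at under 100 CPM, and red points are the 5 genes at least 2-fold higher.

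The 15 lowest and 15 highest genes were taken by the end of the counting interval nearest to 1, among genes with whole counts that an earlier account of these data does not describe. Genes of transcription factors, receptors and the cytoskeleton were among the 15 lowest. FOXQ1 (ENSG00000164379 on the plus strand of chromosome 6, 1312440 to 1314748, with this and all gene positions from the GENCODE 29 annotation of GRCh38), a forkhead transcription factor gene, had 113 counts with A740003, 263 with A438079 and 553 with PBS. Its ratio over PBS was 0.20 (0.162 to 0.245), the lowest of the 15. SOX12, which encodes an SRY-related transcription factor, had 91 counts with A740003, 152 with A438079 and 372 with PBS, a ratio of 0.239 (0.188 to 0.302). In both genes the A740003 library was the lowest of the 3 and the A438079 library lay between it and PBS. Another nuclear gene was EPOP, whose product binds the Polycomb complex PRC2, with 372 counts with A740003, 593 with A438079 and 1104 with PBS and a ratio of 0.330 (0.292 to 0.371). POLR2A, the gene of the largest subunit of RNA polymerase II, had 133 counts with A740003, 149 with A438079 and 441 with PBS. That gave a ratio of 0.295 (0.241 to 0.359), and here both antagonist libraries were low.

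At the cell surface, PTPRU (ENSG00000060656 on the plus strand of chromosome 1, 29236516 to 29326813), a receptor-type tyrosine phosphatase gene, had 126 counts with A740003, 222 with A438079 and 563 with PBS. Its ratio was 0.219 (0.179 to 0.266). The authors' FPKM values, which are also scaled for transcript length, were 2.54 with A740003 and 7.60 with PBS. EPHB4 (ENSG00000196411 on the minus strand of chromosome 7, 100802565 to 100827521), which encodes a receptor tyrosine kinase for the ligand ephrin-B2, had 112 counts with A740003, 171 with A438079 and 381 with PBS, a ratio of 0.288 (0.231 to 0.356). SEMA6B, a transmembrane semaphorin gene, had 160 counts with A740003, 300 with A438079 and 614 with PBS, a ratio of 0.255 (0.213 to 0.304). These 3 surface genes had their lowest counts with A740003. LRP5, which encodes a Wnt co-receptor, stood at 0.280 (0.223 to 0.349) times PBS, and FZD5, a frizzled receptor gene for Wnt ligands, at 0.344 (0.289 to 0.408) times. FZD5 had 183 counts with A740003, 236 with A438079 and 520 with PBS.

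In the cytoskeleton, FLNA, the gene of the actin crosslinker filamin A, was the best counted of the 15 lowest genes, with 427 counts with A740003, 777 with A438079 and 1812 with PBS. Its ratio was 0.231 (0.207 to 0.256). MYH14, a non-muscle myosin heavy chain gene, stood at 0.295 (0.239 to 0.362) times PBS (123 against 408 counts). Signalling and housekeeping genes made up the rest of the 15. PHLPP1, a phosphatase gene whose product acts on AKT, stood at 0.295 (0.236 to 0.366) times, and CABLES1, which encodes a binding partner of cyclin-dependent kinases, at 0.321 (0.269 to 0.382) times. The FPKM values of PHLPP1 were closer, at 1.48 with A740003 and 3.13 with PBS. ANKRD52, a regulatory subunit gene of protein phosphatase 6, stood at 0.239 (0.189 to 0.299) times. VARS1, the valyl-tRNA synthetase gene, had 340 counts with A740003, 468 with A438079 and 1151 with PBS, a ratio of 0.289 (0.255 to 0.326). NUP210, a membrane protein gene of the nuclear pore, stood at 0.277 (0.229 to 0.334) times.

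On the higher side the ratios were smaller, and the 15 genes chosen by the same rule ran from 1.53 to 1.97 times PBS. COX8A (ENSG00000176340 on the plus strand of chromosome 11, 63974607 to 63976543), which encodes a small subunit of cytochrome c oxidase, had 701 counts with A740003, 499 with A438079 and 348 with PBS. Its ratio was 1.97 (1.73 to 2.25). ROMO1, a short inner-membrane protein gene linked to reactive oxygen species, stood at 1.68 (1.53 to 1.84) times (1331 against 776 counts), and MPV17, another inner-membrane protein gene, at 1.66 (1.46 to 1.91) times. DHRS2 (ENSG00000100867 on the plus strand of chromosome 14, 23630115 to 23645639), a short-chain dehydrogenase gene, was the most abundant, with 25383 counts with A740003, 16590 with A438079 and 14846 with PBS. Its ratio was 1.67 (1.64 to 1.71). The A740003 library thus stood above both others for COX8A and DHRS2. ANGPTL8, a secreted regulator of lipoprotein lipase, had 426 counts with A740003, 263 with A438079 and 240 with PBS, which gave 1.74 (1.48 to 2.04) times PBS.

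Among the rest of the higher genes, EPG5, whose product tethers autophagosomes to lysosomes, stood at 1.79 (1.56 to 2.06) times PBS (569 against 311 counts), and VPS13D, a lipid transfer protein gene, at 1.64 (1.47 to 1.83) times. The motor genes KIF13A and MYO9A stood at 1.57 (1.46 to 1.70) and 1.81 (1.53 to 2.14) times. OGA (ENSG00000198408 on the minus strand of chromosome 10, 101784443 to 101818465), the gene of the enzyme that removes O-GlcNAc from proteins, had 2225 counts with A740003, 1912 with A438079 and 1370 with PBS, a ratio of 1.59 (1.48 to 1.70). USP47, a deubiquitinase gene, stood at 1.58 (1.46 to 1.70) times and KIDINS220, a neurotrophin receptor scaffold gene, at 1.53 (1.44 to 1.64) times. XRN1, the 5′ to 3′ exoribonuclease gene, stood at 1.62 (1.44 to 1.84) times by counts. The authors' FPKM values did not show 1.5-fold for 3 of these genes: they were 3.85 with A740003 and 4.01 with PBS for XRN1, 5.14 with A740003 and 4.70 with PBS for VPS13D and 3.38 with A740003 and 2.35 with PBS for MYO9A. ZNF616 and ATP6AP1L completed the group at 1.84 (1.53 to 2.22) and 1.71 (1.44 to 2.03) times.

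**Figure D2:**
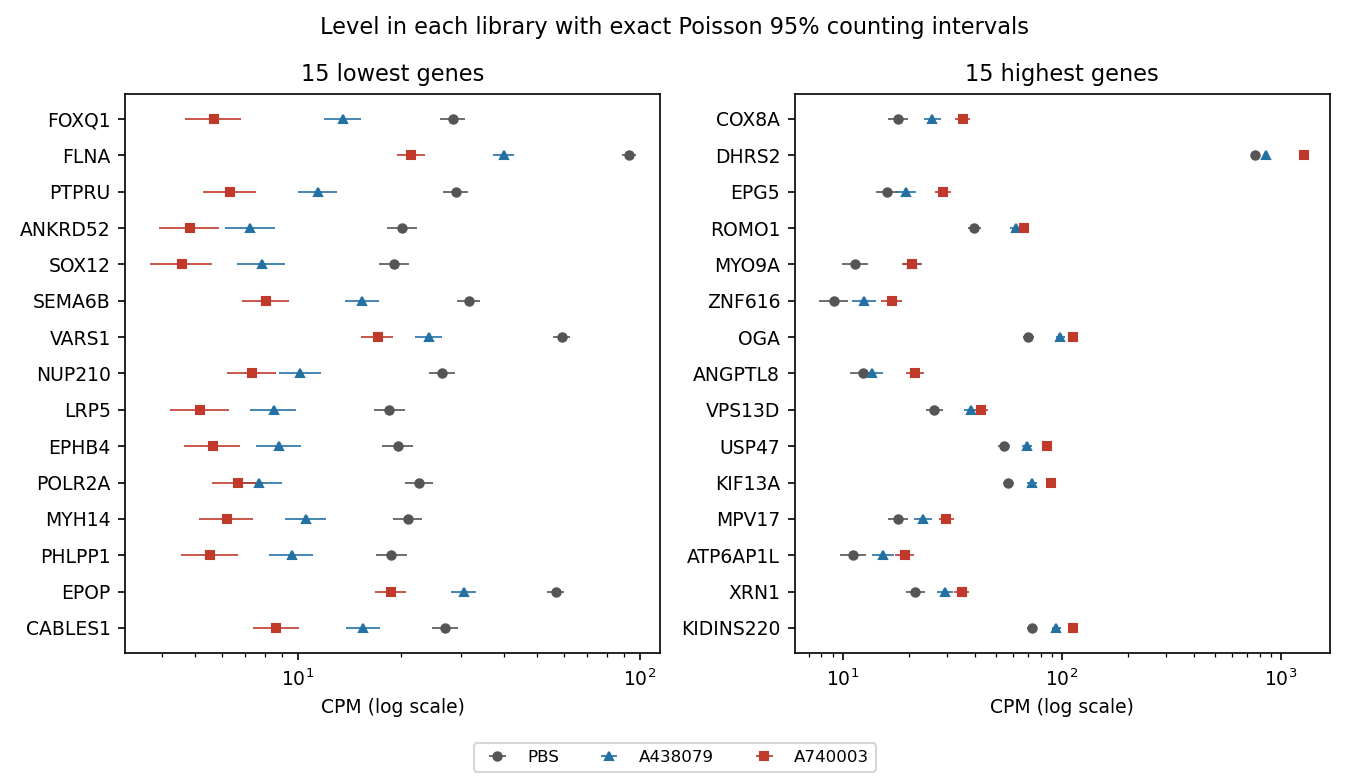
CPM (horizontal axes, log scale) in each of the 3 libraries is shown for the 15 lowest genes (left) and the 15 highest genes (right), with exact Poisson 95% counting intervals as bars. FOXQ1 and PTPRU show the widest gaps between A740003 and PBS on the left, and the ratios on the right stay under 2.

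The start regions of the lower genes were richer in G and C than those of all well counted genes. Those of the higher genes lay close to all well counted genes. As examples 6 are printed: FOXQ1, PTPRU and EPHB4 from the lower side and COX8A, DHRS2 and OGA from the higher. Each is the 250 bases before the annotated start from RefSeq on GRCh38.p14, 5′ to 3′ on the gene's strand, with GGGCGG or its reverse complement CCGCCC (a GC box) in capitals.
FOXQ1, chr6:1311848-1312097, plus strand: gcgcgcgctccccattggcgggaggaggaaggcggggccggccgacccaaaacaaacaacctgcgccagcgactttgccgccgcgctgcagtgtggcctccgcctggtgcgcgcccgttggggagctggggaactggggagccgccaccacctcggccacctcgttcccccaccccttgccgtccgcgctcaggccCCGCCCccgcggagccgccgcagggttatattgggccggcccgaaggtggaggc
PTPRU, chr1:29236272-29236521, plus strand: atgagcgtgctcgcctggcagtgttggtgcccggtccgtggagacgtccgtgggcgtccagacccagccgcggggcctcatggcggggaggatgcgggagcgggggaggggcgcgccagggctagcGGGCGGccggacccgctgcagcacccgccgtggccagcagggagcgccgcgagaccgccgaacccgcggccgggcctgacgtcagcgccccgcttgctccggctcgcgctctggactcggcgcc
EPHB4, chr7:100827524-100827773, minus strand: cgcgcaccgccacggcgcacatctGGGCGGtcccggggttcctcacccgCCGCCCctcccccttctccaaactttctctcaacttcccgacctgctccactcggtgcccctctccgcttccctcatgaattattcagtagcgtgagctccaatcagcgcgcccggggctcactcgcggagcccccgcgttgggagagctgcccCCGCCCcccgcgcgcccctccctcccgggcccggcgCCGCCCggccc
COX8A, chr11:63974370-63974619, plus strand: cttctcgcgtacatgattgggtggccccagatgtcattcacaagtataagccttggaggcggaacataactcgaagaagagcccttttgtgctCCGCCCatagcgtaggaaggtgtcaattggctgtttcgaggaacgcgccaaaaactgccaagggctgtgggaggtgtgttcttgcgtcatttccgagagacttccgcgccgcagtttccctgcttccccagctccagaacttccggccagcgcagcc
DHRS2, chr14:23629865-23630114, plus strand: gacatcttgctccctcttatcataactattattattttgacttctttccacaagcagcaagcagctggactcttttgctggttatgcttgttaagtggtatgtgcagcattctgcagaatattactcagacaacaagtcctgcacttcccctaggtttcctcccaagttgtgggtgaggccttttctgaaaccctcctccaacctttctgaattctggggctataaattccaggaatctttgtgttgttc
OGA, chr10:101818445-101818694, minus strand: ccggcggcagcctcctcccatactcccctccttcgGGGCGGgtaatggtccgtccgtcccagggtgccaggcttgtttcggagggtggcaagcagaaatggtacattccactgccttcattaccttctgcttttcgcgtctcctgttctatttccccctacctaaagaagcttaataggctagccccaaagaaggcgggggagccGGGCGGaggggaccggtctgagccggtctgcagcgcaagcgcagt

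The 3 lower genes had 74.0%, 77.6% and 72.8% G or C with 29, 36 and 29 CG dinucleotides. COX8A and OGA had 56.0% and 60.8% with 16 each. DHRS2 had 43.2% with no CG dinucleotide and no GC box, and it alone of the 6 held TATAAA on the sense strand. Windows were matched by symbol for 6712 of the 8196 well counted genes. Their median GC content was 64.8%, against 70.8% for the 315 matched genes at least 1.5-fold lower and 63.6% for the 76 at least 1.5-fold higher. The printed windows of each side all lay farther from 64.8% than the median of their side. GGGCGG on either strand was in 68.3% of all matched windows, 77.1% of the lower and 68.4% of the higher. CCAAT on either strand was in 36.5%, 32.7% and 38.2%, and TATAAA on the sense strand in 3.14%, 1.27% and 7.89%. The TATAAA shares of the lower and higher genes rest on 4 and 6 genes. A match describes the letters of a window and is not a site.

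Transcripts themselves showed a steeper pattern, in GC content and length together. Among the 8124 well counted genes with an annotated transcript, the 198 in both the highest of 5 equal classes of GC content (at least 55.2%) and the longest of 3 classes of length (at least 4538 nt) had a median log2 ratio of -0.62. Of these, 103 (52.0%) were at least 1.5-fold lower and none was at least 1.5-fold higher. Short transcripts of the same GC content (up to 2567 nt) had a median of -0.02, with 4.96% lower. Long transcripts in the lowest GC class (up to 40.2%) had a median of 0.19, with 3 of 850 genes lower and 15 higher. The long, GC-rich genes were also less abundant, with a median of 19.1 CPM against 59.0 for the long, GC-poor genes. The part of level, GC content or length in the ratios was not tested.

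**Figure D3:**
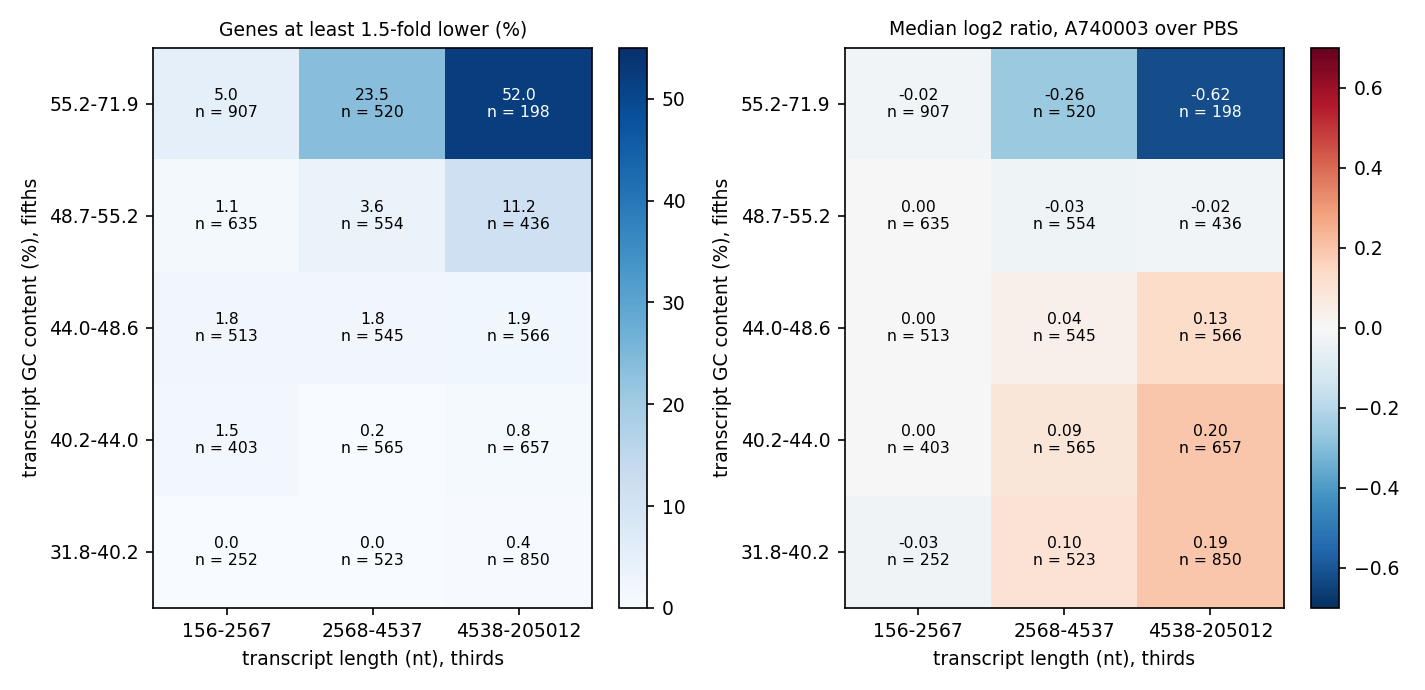
Well counted genes are divided into 5 classes of transcript GC content (vertical axes, %) and 3 classes of transcript length (horizontal axes, nt), and the number in each cell is given as n. The left panel gives the percentage of genes at least 1.5-fold lower, which reaches 52.0% for long, GC-rich genes, and the right panel gives the median log2 ratio, which runs from -0.62 to 0.20.

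Each log2 ratio was also set against its neighbours in GC content and length, by taking away the median of its closest neighbours on both. Neighbours were taken from the 11907 genes of at least 1 CPM with an annotated transcript, not from well counted genes alone. They include genes of 1 to 10 CPM, of which 22.1% were at least 1.5-fold lower, against 4.86% of well counted genes. What this adds to values on this scale was not tested. On that scale 40 genes were at least 2-fold lower in place of 150, and 5 were at least 2-fold higher. Of the genes chosen on that scale by the same rule, FOXQ1 was again the lowest at -1.97, followed by POLR2A at -1.77 and FZD5 at -1.56. The transcript used for POLR2A, of 2083 nt, is its only protein-coding one in the annotation, and a longer one is annotated as a processed transcript, so its place on this scale is uncertain. CABLES1 (-1.42), ANKRD52 (-1.37), PHLPP1 (-1.20) and SOX12 (-1.19) were again among the 10 lowest. Joining them were NOL6, a ribosome biogenesis gene (-1.35), ZCCHC2 (-1.31) and KRT23, a type I keratin gene (-1.23). KRT23 had 308 counts with A740003, 485 with A438079 and 698 with PBS, a ratio of 0.432 (0.376 to 0.494). FLNA moved from a log2 ratio of -2.12 to -0.82 and MYH14 from -1.76 to -0.37.

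The highest genes on that scale included a pair that act on hyaluronan. HYAL2, a membrane-anchored hyaluronidase gene, had 1228 counts with A740003, 906 with A438079 and 894 with PBS, a ratio of 1.34 (1.23 to 1.47), and stood at 1.47 against its neighbours. CEMIP, which encodes a hyaluronan-binding protein needed for its breakdown, had 2421 counts with A740003, 2019 with A438079 and 1676 with PBS, a ratio of 1.41 (1.33 to 1.5), and stood at 0.71. In FPKM, CEMIP stood at 17.71 with A740003 and 16.86 with PBS. Both had their highest count with A740003, and neither reached 1.5-fold over PBS. MCRIP1 stood at 0.99, with a ratio over PBS of 1.39 (1.20 to 1.60). COX8A (0.83), ZNF616 (0.78), ANGPTL8 (0.77), DHRS2 (0.74), ATP6AP1L (0.72) and MPV17 (0.72) were in this group as well.

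Gene groups came from 30 lists of complexes and pathways, with 582 different well counted genes among their members. A list was described as shifted when its median log2 ratio was at least 0.2 in size. This held for 4 lists: receptor tyrosine kinases and plexins with semaphorins were lower, and giant ubiquitin ligases and the Notch pathway were higher. In 16 lists no well counted member passed 1.5-fold with an interval that excluded 1. Of all well counted genes 4.86% were lower and 1.07% higher by that rule, and the lists held 7 to 49 well counted genes. At such shares a short list can hold none, so a list without a called member is not read as a result.

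Receptor tyrosine kinase genes were the most shifted list. These receptors pass signals of growth factors, ephrins and matrix to the inside of the cell. Of 28 listed genes 27 had a row, 17 reached 1 CPM and 12 were well counted. Of these 12, 8 were at least 1.5-fold lower (66.7%, against 4.86% of all well counted genes) and none was at least 1.5-fold higher. The median log2 ratio was -0.88, or -0.34 against neighbours in GC content and length. It was 0.16 over the 3 members with at least 50 CPM (MET, ERBB3 and MERTK).

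Among growth factor receptors, IGF1R, the receptor gene for insulin-like growth factors, had 178 counts with A740003, 234 with A438079 and 404 with PBS. Its ratio was 0.431 (0.359 to 0.515). INSR, the closely related insulin receptor gene, had 524 counts with A740003, 607 with A438079 and 565 with PBS, a ratio of 0.907 (0.804 to 1.02). The intervals of the pair did not overlap. FGFR4, the main fibroblast growth factor receptor gene of hepatocytes, had 435 counts with A740003, 422 with A438079 and 939 with PBS, a ratio of 0.453 (0.404 to 0.508), and both antagonist libraries were alike. FGFR3 stood at 0.643 (0.571 to 0.723) times PBS but at 0.33 on the log2 scale against its neighbours. ERBB2, with fractional counts, had 218 counts with A740003, 322 with A438079 and 474 with PBS, a ratio of 0.450 (0.381 to 0.529). Its signalling partner ERBB3 had 1856 counts with A740003, 1735 with A438079 and 1837 with PBS, a ratio of 0.988 (0.926 to 1.05), whose interval includes 1.

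The ephrin receptor gene EPHA2 stood at 0.485 (0.424 to 0.555) times PBS (332 against 669 counts), beside EPHB4 described above. PTK7, a pseudokinase gene of planar cell polarity, stood at 0.547 (0.469 to 0.638) times, and TYRO3, a receptor gene for GAS6 and protein S with fractional counts, at 0.538 (0.463 to 0.624) times. In FPKM, TYRO3 did not reach 1.5-fold (6.43 with A740003 and 8.37 with PBS). The related gene MERTK stood at 1.12 (1.03 to 1.23) times, and MET, the receptor gene for hepatocyte growth factor, at 1.12 (1.06 to 1.18) times. MET was the best counted of the list, with 2910 counts with A740003, 2961 with A438079 and 2539 with PBS, counts that were fractional as were those of ERBB3. Between 1 and 10 CPM, DDR1, a collagen receptor gene, stood at 0.260 (0.180 to 0.370) times, while EGFR, with fractional counts, stood at 1.70 (1.29 to 2.27) times (141 against 81 counts). FGFR1 stood at 0.746 (0.592 to 0.939) times, EPHA1 at 0.767 (0.583 to 1.01) times and DDR2 at 1.09 (0.624 to 1.90) times.

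**Figure D4:**
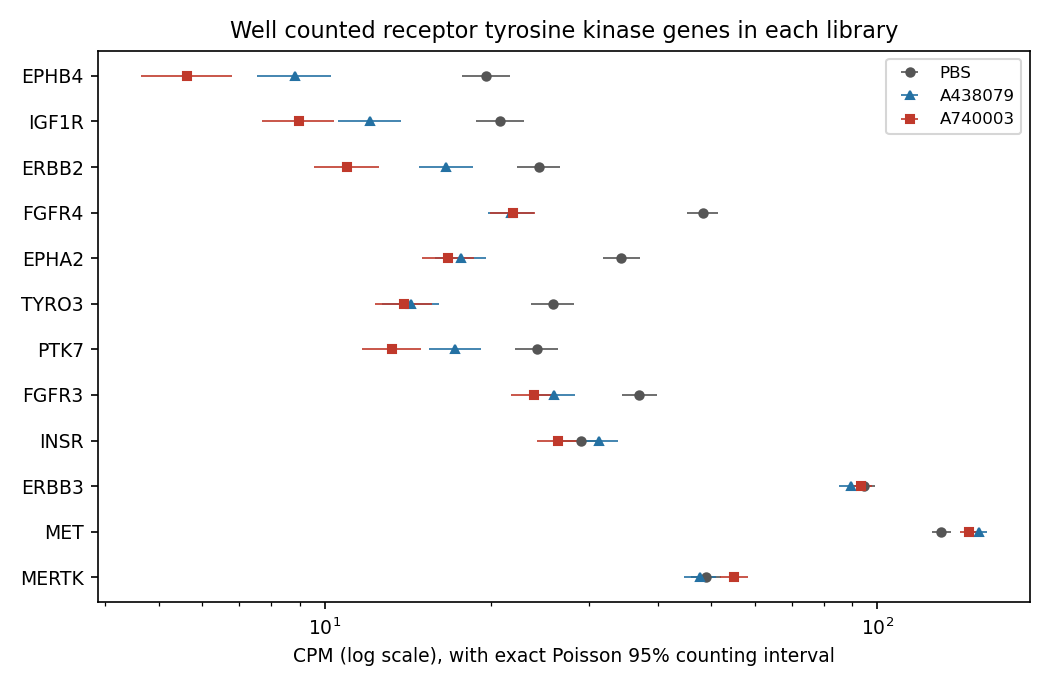
CPM (horizontal axis, log scale) of the 12 well counted receptor tyrosine kinase genes is shown in the A740003, A438079 and PBS libraries, with exact Poisson 95% counting intervals as bars. The 8 genes from EPHB4 to FGFR3 lie at least 1.5-fold lower with A740003 than with PBS, and INSR, ERBB3, MET and MERTK lie near PBS.

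Plexins and semaphorins are receptors and ligands of cell guidance. Of 25 listed genes, 16 reached 1 CPM and 7 were well counted. SEMA6B, the well counted semaphorin gene described above at 0.255 times PBS, was not on the list. The values of the list therefore leave it out. The median log2 ratio of the 7 was -0.35, with 3 at least 1.5-fold lower (against 4.86% of all well counted genes) and none higher. The list's median was -0.11 against neighbours in GC content and length, -0.62 over members with at least 1 CPM, -0.54 over those with whole counts, and -0.77 in FPKM with a pseudocount of 0.1. PLXNB2 had 410 counts with A740003, 553 with A438079 and 1094 with PBS, a ratio of 0.367 (0.326 to 0.411). PLXNB1 stood at 0.553 (0.470 to 0.649) times PBS, but above its neighbours in GC content and length, at 0.45 on the log2 scale. SEMA3B, a secreted semaphorin gene with fractional counts, stood at 0.589 (0.527 to 0.659) times, and SEMA6A at 1.01 (0.911 to 1.12) times, with an interval that includes 1. Of 9 listed plexin and semaphorin genes at 1 to 10 CPM, 5 were at least 1.5-fold lower, against 22.1% of all genes at that level, and none was higher. PLXNA1 stood at 0.246 (0.171 to 0.347) times (42 against 167 counts) and PLXND1 at 0.353 (0.276 to 0.448) times (95 against 263 counts).

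Giant ubiquitin ligases, very large enzymes that mark proteins for degradation, stood on the other side. Their median log2 ratio was 0.29 over 18 well counted genes of 20, with 13 above PBS, and 0.20 against neighbours. At 1.5-fold, 2 were higher (11.1%, against 1.07% of all) and none was lower. HERC1 had 1025 counts with A740003, 883 with A438079 and 638 with PBS, a ratio of 1.57 (1.42 to 1.74). UBR1, a ligase gene of the N-degron pathway, had 1033 counts with A740003, 866 with A438079 and 663 with PBS, a ratio of 1.52 (1.38 to 1.68). The FPKM values were 8.40 with A740003 and 3.42 with PBS for HERC1, a wider difference, and 7.77 with A740003 and 6.03 with PBS for UBR1, a smaller one. For HERC1 and UBR1, both antagonist counts were above PBS and the A740003 count was the highest. TRIP12 stood at 1.35 (1.31 to 1.40) times, and BIRC6 and UBR4, with fractional counts, at 1.49 (1.42 to 1.57) and 1.24 (1.17 to 1.31) times. HERC2, with fractional counts, was the lowest member at 0.675 (0.568 to 0.801) times.

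Notch pathway genes had a median log2 ratio of 0.25 over 13 well counted genes of 29, with 10 above PBS, none past 1.5-fold and a median of 0.14 against neighbours. The median was 0.11 over the 21 genes with at least 1 CPM, and -0.08 when every gene with a count was included. Genes of receptor cleavage and of the nuclear complex were among those above PBS. ADAM10, the gene of the protease that sheds Notch, with fractional counts, had 4321 counts with A740003, 3822 with A438079 and 3283 with PBS, a ratio of 1.29 (1.23 to 1.35). NCSTN and PSENEN, subunit genes of gamma-secretase with fractional counts, stood at 1.25 (1.17 to 1.33) and 1.36 (1.17 to 1.59) times. RBPJ, the DNA-binding factor of the pathway, stood at 1.26 (1.18 to 1.34) times and its coactivator MAML2 at 1.37 (1.14 to 1.64) times. The ligand gene JAG1 stood at 0.914 (0.858 to 0.974) times, and NRARP, a Notch target under 10 CPM, at 0.378 (0.237 to 0.588) times (29 counts with A740003, 70 with A438079 and 75 with PBS).

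**Figure D5:**
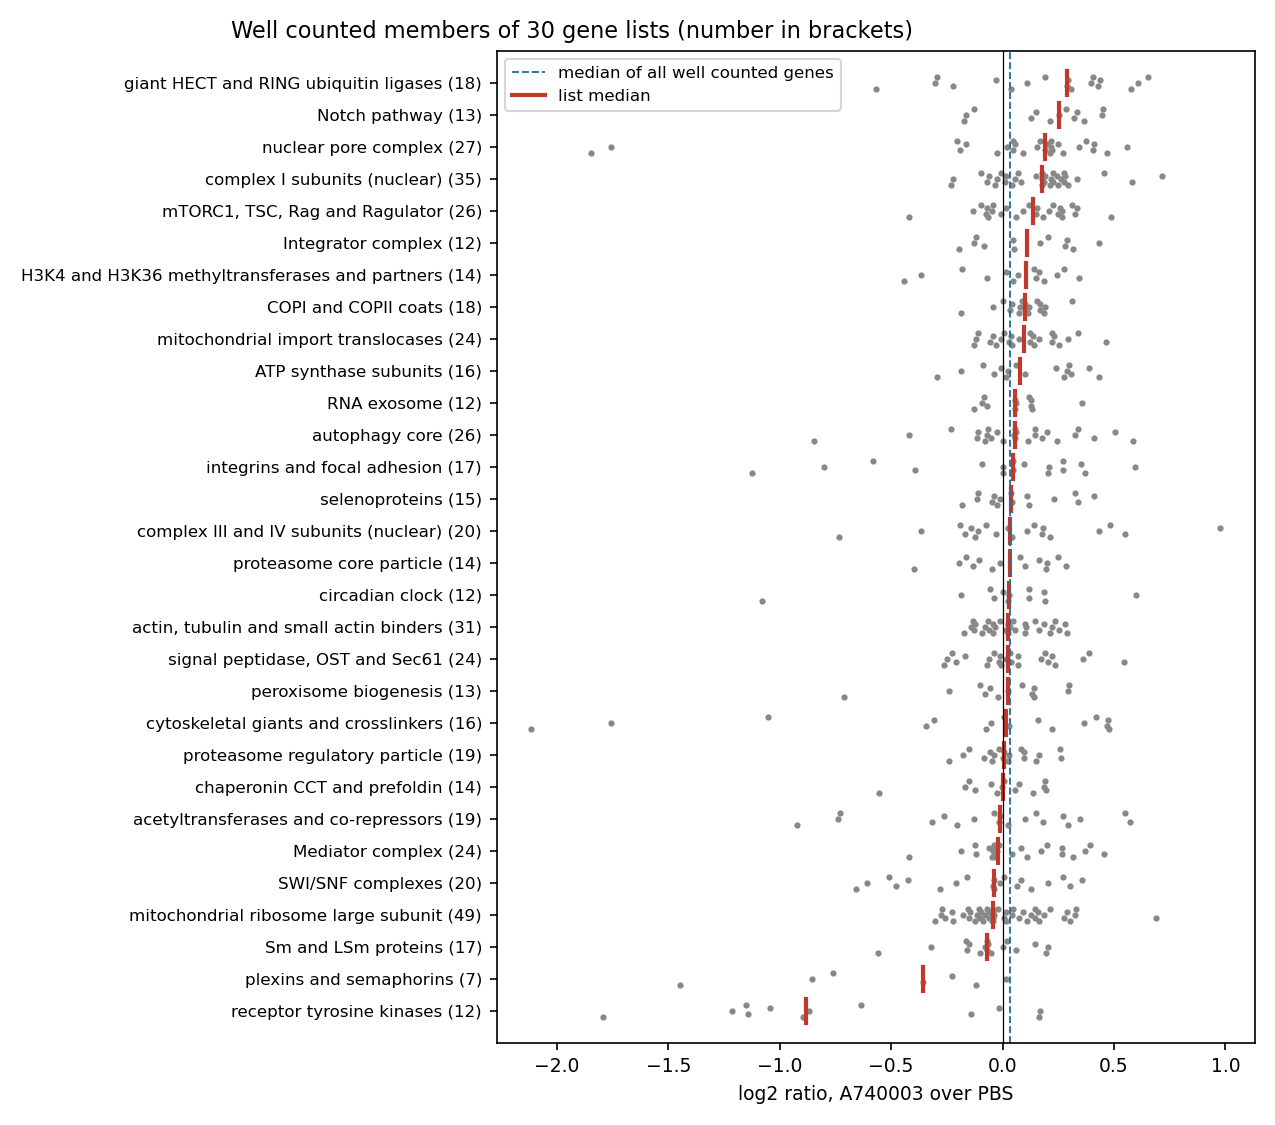
Log2 ratios of A740003 over PBS (horizontal axis) are shown for the well counted members of 30 gene lists, 1 grey point per gene, with the list median as a red bar and the median of all well counted genes (0.03) as a dashed line. Receptor tyrosine kinases (-0.88) and plexins with semaphorins (-0.35) lie to the left of the other lists.

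Lists of energy metabolism lay close to PBS. Nuclear genes of complex I, which passes electrons from NADH, had a median log2 ratio of 0.18 over 35 well counted genes of 38, with 27 above PBS (77.1%, against 55.6% of all well counted genes). The intervals of 21 lay above 1, as did those of 2801 of all 8196, but only NDUFA7 passed 1.5-fold, at 1.65 (1.39 to 1.95) times PBS with fractional counts. NDUFA2 and NDUFB2, also fractional, stood at 1.49 (1.35 to 1.65) and 1.37 (1.22 to 1.55) times. The median of complex I was 0.08 over its 15 well counted members with whole counts, and 0.07 in FPKM with either pseudocount. Against neighbours in GC content and length it was 0.17. For complexes III and IV the median was 0.03. COX8A and COX6A1, both of complex IV, stood at 1.97 and 1.46 (1.37 to 1.56) times, while UQCRFS1, the Rieske protein gene of complex III with fractional counts, stood at 0.602 (0.536 to 0.675) times (484 against 787 counts). ATP synthase genes had a median of 0.08 and none of 16 past 1.5-fold. ATP5MC1, a gene of the rotor ring, stood at 1.35 (1.25 to 1.46) times. The large subunit of the mitochondrial ribosome had a median of -0.04, with MRPL41 the only 1 of 49 past 1.5-fold, at 1.61 (1.40 to 1.87) times. Import translocase genes had a median of 0.10 with none of 24 past 1.5-fold, and TIMM17B stood at 1.38 (1.21 to 1.58) times.

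In the nuclear pore, the channel between nucleus and cytoplasm, the median log2 ratio was 0.19, with 21 of 27 members above PBS (77.8%, against 55.6% of all well counted genes). Against neighbours in GC content and length it was 0.05. The basket gene TPR had 6166 counts with A740003, 5232 with A438079 and 4097 with PBS, a ratio of 1.47 (1.41 to 1.53), and RANBP2, of the cytoplasmic filaments, stood at 1.38 (1.34 to 1.43) times, both with fractional counts. The pore membrane genes NUP210 and POM121 were the 2 members at least 1.5-fold lower (7.41%, against 4.86% of all). POM121, with fractional counts and close copies in the genome, had 111 counts with A740003, 142 with A438079 and 368 with PBS, a ratio of 0.295 (0.236 to 0.366). NDC1, another pore membrane gene, stood at 1.16 (1.11 to 1.21) times, on the other side of PBS.

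Coactivator and corepressor genes were spread in both directions, with a median of -0.01. Of 19 well counted members, 3 were at least 1.5-fold lower (15.8%, against 4.86% of all well counted genes) and none was higher. EP300, a histone acetyltransferase gene, had 179 counts with A740003, 200 with A438079 and 332 with PBS, a ratio of 0.527 (0.437 to 0.634). The deacetylase genes HDAC6 and HDAC5 stood at 0.599 (0.523 to 0.684) and 0.602 (0.491 to 0.736) times PBS, the latter with fractional counts and at 0.30 on the log2 scale against its neighbours. KAT7, another acetyltransferase gene, stood at 1.49 (1.34 to 1.65) times. In the SWI/SNF remodelling complexes the median was -0.04 over 20 genes. SMARCA4, an ATPase gene of these complexes, had 657 counts with A740003, 846 with A438079 and 1014 with PBS. Its ratio was 0.634 (0.574 to 0.700), but it stood at 0.47 against its neighbours. Methyltransferases of histone H3 and their partners had a median of 0.11 with none of 14 past 1.5-fold, and WDR5 stood at 0.737 (0.668 to 0.812) times. Mediator and Integrator had medians of -0.02 and 0.11, and neither list had a member past 1.5-fold.

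Large cytoskeletal genes lay on both sides of PBS. Of 16 well counted members, 3 were at least 1.5-fold lower (18.75%, against 4.86% of all well counted genes) and none was higher. The list's median was 0.02, and 0.22 against neighbours in GC content and length. FLNA, described above, was its lowest member at 0.231 times PBS, and MYO18A stood at 0.481 (0.408 to 0.567) times. Among the non-muscle myosin heavy chains, MYH14 stood at 0.295 times, MYH9 at 0.789 (0.754 to 0.826) times and MYH10, with fractional counts, at 1.34 (1.28 to 1.40) times. The intervals of these 3 did not overlap. Against neighbours the order changed, with MYH9 at 0.69, MYH10 at 0.39 and MYH14 at -0.37 on the log2 scale. UTRN, which links actin to the membrane, stood at 1.39 (1.33 to 1.47) times. None of 31 well counted genes of actin, tubulin and small actin binders passed 1.5-fold, and their median was 0.03. Of all well counted genes 4.86% were lower and 1.07% higher at 1.5-fold. The median transcript length of the 31 was 2068 nt, against 9629.5 nt for the giants, and its part was not tested. PFN1, the profilin gene, stood at 1.22 (1.18 to 1.27) times.

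Focal adhesion genes had a median of 0.05 with 2 of 17 at least 1.5-fold lower (against 4.86% of all well counted genes) and 1 higher (against 1.07%). TLN1, the gene of talin, which activates integrins, had 706 counts with A740003, 859 with A438079 and 1506 with PBS, a ratio of 0.459 (0.419 to 0.502). TNS3, a tensin gene with fractional counts, stood at 0.574 (0.519 to 0.635) times PBS. ITGA2, a collagen-binding integrin gene, had 1910 counts with A740003, 1657 with A438079 and 1236 with PBS, a ratio of 1.51 (1.41 to 1.62). ITGB1, the common beta subunit gene with fractional counts, stood at 1.29 (1.27 to 1.32) times. ITGB5, another beta subunit gene, stood at 0.667 (0.608 to 0.732) times, so the integrin genes named lay on both sides of PBS.

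Genes of mTORC1, the kinase complex that couples nutrients to growth, and of its regulators had a median log2 ratio of 0.14, with none of 26 well counted genes past 1.5-fold. MTOR stood at 1.20 (1.14 to 1.28) times PBS and RICTOR, of the sister complex, at 1.40 (1.27 to 1.55) times. Of 7 members at 1 to 10 CPM, 4 were at least 1.5-fold lower, against 22.1% of all genes at that level, and none was higher, against 7.48%. Among the 4, RPTOR, which defines mTORC1, had 109 counts with A740003, 164 with A438079 and 307 with PBS, a ratio of 0.347 (0.277 to 0.433). TSC2, an inhibitor gene of the pathway with fractional counts, had 28 counts with A740003, 72 with A438079 and 117 with PBS, a ratio of 0.234 (0.149 to 0.356), but FPKM values of 1.18 with A740003 and 1.68 with PBS. Among autophagy genes (median 0.06), ATG2B stood at 1.5 (1.31 to 1.73) times and ATG9A, with fractional counts, at 0.556 (0.484 to 0.637) times. Both encode proteins that act together in growth of the autophagosome membrane. In the circadian clock (median 0.03), CLOCK had 1087 counts with A740003, 1055 with A438079 and 702 with PBS, a ratio of 1.51 (1.38 to 1.67), and its paralog NPAS2, with fractional counts, had 171 counts with A740003, 219 with A438079 and 354 with PBS, a ratio of 0.472 (0.391 to 0.569). The pair stood on opposite sides of PBS.

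Lists of small, abundant complexes stayed close to PBS. The proteasome core and regulatory particles had medians of 0.03 and 0.01, the chaperonin and prefoldin list 0.00, the translocation and N-glycosylation list 0.03 and the COPI and COPII coats 0.10, and none of their 89 well counted members passed 1.5-fold. Of all well counted genes, 4.86% were at least 1.5-fold lower and 1.07% higher. The lower share was 10.7% at 10 to 30 CPM, 2.36% at 30 to 100 CPM, 0.427% at 100 to 300 CPM and 0.777% from 300 CPM. The part of level in these lists was not tested. The largest departures among the 89 were PFDN4, a prefoldin gene, at 0.680 (0.641 to 0.721) times PBS and TMEM258, a subunit gene of the oligosaccharyltransferase, at 1.46 (1.32 to 1.62) times. Sm and LSm genes of RNA processing had a median of -0.07, with LSM5 at 0.678 (0.636 to 0.722) times, and RNA exosome genes a median of 0.06. Selenoprotein genes had a median of 0.04. GPX2, a glutathione peroxidase gene, stood at 1.27 (1.23 to 1.30) times and TXNRD1, a thioredoxin reductase gene, at 1.25 (1.22 to 1.28) times. Peroxisome biogenesis genes had a median of 0.03, and PEX10, with fractional counts, stood at 0.610 (0.541 to 0.687) times (FPKM 18.97 with A740003 and 28.18 with PBS).

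The A438079 library was set beside these values. It shares the PBS library, so the 2 ratios over PBS are not independent. At 1.5-fold over PBS, 292 genes were lower with A438079 (3.56%) and 21 higher (0.256%). At 2-fold these counts were 48 (0.586%) and 6 (0.0732%). In the direct ratio of the antagonist libraries, 48 genes were at least 1.5-fold lower with A740003 than with A438079 (0.586%) and 30 at least 1.5-fold higher (0.366%). At 2-fold they were 12 (0.146%) and 2 (0.0244%). The 15 lowest genes stood at 0.338 to 0.575 times PBS with A438079, against 0.20 to 0.330 times with A740003. They were chosen on the A740003 ratio, so their direct ratios describe them only. FOXQ1 stood at 0.420 (0.334 to 0.525) times the A438079 level, FLNA at 0.537 (0.476 to 0.605) and DHRS2 at 1.49 (1.47 to 1.52). For POLR2A the direct ratio was 0.872 (0.685 to 1.11) and for FGFR4 1.01 (0.878 to 1.15), and both intervals include 1. Receptor tyrosine kinase genes had a median log2 ratio of -0.53 with A438079 over PBS, with 5 of 12 at least 1.5-fold lower. Long, GC-rich genes had a median of -0.48 with A438079 over PBS and of -0.15 in the direct ratio, in which 11 of 198 were at least 1.5-fold lower with A740003 and none higher.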

How the data were processed

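RNA-seq libraries were made from total RNA with a SMARTer mRNA kit, per the labels' protocols, 1 each for A740003, A438079 and PBS. The authors deposited expected counts, estimates that need not be whole, and FPKM values scaled for length and library size. The sources used here do not give the aligner, counting tool, annotation or use of strand, which leaves overlapping and antisense genes uncertain. The submitters' processing notes name GRCm38, a mouse build, although the rows are human genes. Rows without an Ensembl identifier (116, with 0.0775% to 0.0853% of counts) stayed in library totals.

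Expected counts were rounded and scaled by TMM (edgeR 4.0.16, R 4.3.3). Ratios carry exact conditional binomial (Clopper-Pearson) 95% intervals, and log2 ratios a pseudocount of 0.5 counts. Whole counts lie within 0.005 of a whole number in the A740003 and PBS libraries. GC content and length are those of the longest transcript of GENCODE 29's basic set, found for 8124 of 8196 genes. For protein-coding genes this was the longest protein-coding transcript. Nearest genes were the 201 closest in rank of both among genes of at least 1 CPM, and promoter windows are from RefSeq. The steps were tested on simulated data.

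Named genes were the 15 highest and 15 lowest ranked on the interval end closest to 1, taken from genes with a symbol, whole counts and a ratio of at least 1.5 either way, passing over genes that an earlier account of these data gives, then the 10 highest and 10 lowest against neighbours, and up to 4 members per list with the largest ratios and the member with the highest FPKM in PBS. Other list members, PTK7 and EGFR among them, were named after their values were seen. Members and lists were chosen with earlier results of these data known. Of 740 listed symbols 733 had a row, and the others are not analysed here. Some genes that the rule names are not reported here. Alternatives were other scalings (DESeq2 1.42.0 size factors among them), level limits, folds, FPKM with pseudocounts of 0.1 and 1, counts not rounded, whole counts, protein-coding genes and removal of the GC and length trend.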

Additional observations from a re-analysis of the deposited data

How the results depend on the processing

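The 2-fold calls (5 genes higher, 150 lower) became 145 higher and 666 lower at a mean of at least 1 CPM, 0 higher and 7 lower at 50 CPM, and 521 higher and 1147 lower with every gene that had a count. A ratio of 1.5 gave 88 higher and 398 lower, and a ratio of 3 gave 0 higher and 28 lower. FPKM gave 15 higher and 155 lower with a pseudocount of 0.1 and 12 higher and 97 lower with 1. Whole counts alone gave 0 higher and 96 lower, protein-coding genes alone 3 higher and 146 lower, and removal of the GC and length trend 5 higher and 40 lower. Fewer or more genes entered under the level limits, whole counts and protein-coding genes, and for the other settings the cause was not tested. Total counts, DESeq2 size factors and upper quartile scaling gave 4 or 5 higher and 149 to 162 lower. Of the 30 lists, 4 had a median of at least 0.2 in size and 2 at 50 CPM, where plexins and semaphorins had no member and receptor tyrosine kinases were not called. It was 3 lists at 1 CPM, with every gene that had a count and with FPKM at both pseudocounts, where Notch was not called. It was also 3 with the trend removed, where plexins with semaphorins (-0.11) and Notch (0.14) were not called and cytoskeletal giants (0.22) were. With whole counts it was 4, with Integrator (0.22) and without Notch (0.14). Plexins with semaphorins had -0.81 with every gene that had a count and -0.72 with FPKM and a pseudocount of 1. Several lists with medians under 0.2 also changed sign, among them the H3 methyltransferases with whole counts (-0.08), and mTORC1 (-0.05) and Mediator (0.11) at 50 CPM. Among called lists and the called genes named in the text, directions turned for the receptor tyrosine kinase list at 50 CPM (0.16, over 3 members), the Notch list with every gene that had a count (-0.084), XRN1 with FPKM (-0.057 and -0.047 with pseudocounts of 0.1 and 1), and SMARCA4 (0.47), HDAC5 (0.30), FGFR3 (0.33) and PLXNB1 (0.45) with the GC and length trend removed. No paired analysis was possible because each treatment had 1 library. Depth limits the genes of 1 to 10 CPM, whose intervals rest on few counts.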

Other observations

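Genes with a mean of 1 to 10 CPM, 4076 in all, held more of the large ratios than well counted genes. With A740003, 516 stood at least 2-fold under PBS (12.7%) and 140 at least 2-fold over it (3.43%). The genes named here were chosen after their values were seen, from those with whole counts and the interval bounds farthest from 1. CYP1A1, a cytochrome P450 gene and a known target of the aryl hydrocarbon receptor, had 133 counts with A740003, 52 with A438079 and 41 with PBS. Its ratio was 3.17 (2.22 to 4.62) over PBS and 2.5 (1.80 to 3.51) over A438079. SESN3, a sestrin gene of the nutrient and stress response, had 49 counts with A740003, 14 with A438079 and 15 with PBS, a ratio of 3.20 (1.76 to 6.13) over PBS. DYNC2H1, a motor gene of cilia, had 75 counts with A740003, 31 with A438079 and 27 with PBS, a ratio of 2.72 (1.73 to 4.39), with FPKM values of 0.66 with A740003 and 0.10 with PBS. For these 3 genes the A438079 and PBS counts were close and the A740003 count stood apart. H4C11, 1 of several near-identical histone H4 genes and uncertain for that reason, had 44 counts with A740003, 35 with A438079 and 0 with PBS.

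On the lower side of these genes, PLEC, the gene of the cytolinker plectin, had 8 counts with A740003, 24 with A438079 and 81 with PBS, a ratio of 0.0966 (0.0403 to 0.20), and EPPK1, of the same protein family, had 6 counts with A740003, 22 with A438079 and 77 with PBS, a ratio of 0.0762 (0.0271 to 0.174). HSPG2, the gene of the basement membrane proteoglycan perlecan, had 25 counts with A740003, 38 with A438079 and 174 with PBS, a ratio of 0.141 (0.0885 to 0.214), but the authors' FPKM values for it were 1.18 with A740003 and 1.18 with PBS. BCL9L, a coactivator gene of beta-catenin, had 2 counts with A740003, 18 with A438079 and 65 with PBS, a ratio of 0.0301 (0.00357 to 0.113), with FPKM values of 0.11 with A740003 and 0.46 with PBS. In each of these 4 genes the A740003 count was the lowest and the A438079 count lay between it and PBS. Their transcript GC contents were 67.0%, 68.1%, 64.5% and 62.6%, all within the highest of the 5 GC classes of well counted genes, and their part in the ratios was not tested.

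By chromosome, the median log2 ratio of well counted genes ran from -0.07 on chromosome 22 and -0.06 on chromosome 19 to 0.10 on chromosome 15. Genes of chromosome 19 had the highest median transcript GC content, 57.8%. Of its 369 genes, 10.6% were at least 1.5-fold lower, against 4.86% of all well counted genes. At least 1.5-fold higher were 1.90%, against 1.07% of all. Chromosome 19 was not alone, as the lower share was 9.15% on chromosome 22 and 7.78% on chromosomes 16 and 21. The smallest lower share was 0.641%, on chromosome 13. With the GC and length trend removed the medians of chromosomes 22, 19 and 15 were -0.0031, 0.02 and 0.03.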
